A study of Rattus norvegicus with 6 samples.

Results

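Transcripts of 10 enzymes that turn cholesterol into bile acids were examined in the liver of hypercholesterolemic rats. The genes were chosen by symbol, as bile acid synthesis enzymes other than Cyp7a1 and Cyp8b1, and the rule itself uses no measured value, though earlier results of these data were known when it was written. They were Cyp7b1, Hsd3b7 and Akr1d1, which act on the steroid ring, Cyp27a1, Amacr, Acox2, Hsd17b4 and Scp2, which oxidise and shorten the side chain, and Slc27a5 and Baat, which conjugate the product. They were read by 12 of the 31042 probe sets other than controls and made up 10 of the 14217 genes with a symbol. Akr1d1 and Scp2 had 2 probe sets each. All 12 lay at or above the 40th percentile of mean signal, the filter on dim probe sets, and were tested among the 18625 that did.

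The probiotic group held 3 liver samples and the high-fat group 3. Rats of both groups were first fed a fat-rich diet for 30 d, and both kept to it for 30 d more. During the second period the probiotic rats received Lactobacillus casei Zhang, a lactic acid bacterium, in 1 ml of saline daily by gavage, and the high-fat rats received the same volume of saline alone. The sources used here do not give strain, sex or age of the animals, livers of rats on an ordinary diet were not analysed here, and nothing states that each sample came from a separate rat, so p-values measure only the spread between these samples.

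Bile acids are made in hepatocytes. The main route opens with Cyp7a1, and the acidic route opens with the mitochondrial Cyp27a1 followed by Cyp7b1. The ring is then remodelled by Hsd3b7 and Akr1d1, and the side chain is shortened in peroxisomes, where Amacr, Acox2, Hsd17b4 and Scp2 act in turn. Slc27a5 links bile acids to coenzyme A, and Baat passes them on to taurine or glycine, which makes them soluble and ready for export into bile.

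Promoter sequences were found for 8 of the 10 genes in the RefSeq-based table of build GRCr8, and 4 are printed. Acox2 and Amacr were the members with the smallest p-values and had differences of opposite sign, Cyp27a1 was the member whose groups did not overlap, and Baat carried the rarest motif searched. Each line gives the 250 bases before the transcript start used by that table, 5′ to 3′ on the strand of the gene. Capitals mark AGGTCA, a motif of nuclear receptors, or CAAAGTCCA, the core motif of HNF4A, on either strand.
Acox2: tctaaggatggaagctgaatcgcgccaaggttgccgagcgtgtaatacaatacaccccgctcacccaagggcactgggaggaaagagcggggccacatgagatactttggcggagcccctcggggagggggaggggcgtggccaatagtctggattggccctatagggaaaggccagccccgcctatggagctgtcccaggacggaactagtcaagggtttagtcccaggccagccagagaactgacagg
Amacr: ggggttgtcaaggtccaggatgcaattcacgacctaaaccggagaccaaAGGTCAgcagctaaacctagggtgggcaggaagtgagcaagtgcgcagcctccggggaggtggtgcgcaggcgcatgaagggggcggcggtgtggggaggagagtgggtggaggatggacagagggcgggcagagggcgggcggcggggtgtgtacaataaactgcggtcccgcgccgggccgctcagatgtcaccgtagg
Cyp27a1: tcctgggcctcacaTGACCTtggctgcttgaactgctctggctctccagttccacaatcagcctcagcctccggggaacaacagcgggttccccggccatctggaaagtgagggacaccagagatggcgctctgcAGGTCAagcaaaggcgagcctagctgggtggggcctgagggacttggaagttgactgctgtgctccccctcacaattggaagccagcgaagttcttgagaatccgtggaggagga
Baat: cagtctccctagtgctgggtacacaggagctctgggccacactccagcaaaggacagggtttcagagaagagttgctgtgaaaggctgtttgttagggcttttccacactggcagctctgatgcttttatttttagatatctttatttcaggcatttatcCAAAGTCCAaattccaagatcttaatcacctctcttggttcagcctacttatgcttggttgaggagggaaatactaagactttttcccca
The windows are chr15:19090705-19090954 (plus strand) for Acox2, chr2:61673085-61673334 (plus) for Amacr, chr9:83713282-83713531 (plus) for Cyp27a1 and chr5:68656138-68656387 (minus) for Baat. Annotated gene spans open at 19090820 for Acox2 and 61673291 for Amacr, within these windows, and at 83712402 for Cyp27a1, before its window, so other transcript models begin there. AGGTCA stood in 3 of the 8 windows (Amacr, Cyp27a1 and Hsd17b4), against 14.1% of all 33469 promoters, and CAAAGTCCA in 1 (Baat), against 0.338%. In Cyp27a1 the copy on the minus strand, 236 to 231 bases before the start, overlapped the longer motif CAAGGTCA, which 1.33% of promoters hold. No match was found in the Acox2 window, and none of these letters shows binding.

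The 6 arrays had median signals of 90.4 to 147.2 and were scaled to a common trimmed mean, and their number limits the precision. Over the tested probe sets any pair of arrays correlated at 0.885 to 0.959, within a group at 0.916 to 0.953, and the lowest value was that between probiotic sample 2 and high-fat sample 2. Hepatocyte markers such as Alb and Apob were bright on every array. Of 9 tested hepatocyte markers of 10 listed, 5 had positive and 4 negative differences with a median of 0.016 log2. The signal of the 3′ Actb probe set exceeded that of the 5′ one, a gap that widens as RNA degrades, by 2.51 ± 0.504 log2 in probiotic and 1.80 ± 0.279 in high-fat samples (SD, n = 3 each; exact two-sided permutation p = 0.1, the smallest that 3 against 3 allow). The same gap for Gapdh was 1.17 ± 0.463 log2 in probiotic and 0.594 ± 0.140 in high-fat samples (SD, n = 3 each, exact two-sided permutation p = 0.2). Kupffer cell and macrophage markers summed to signals of 11393.5 to 14481.4 in probiotic and 14209 to 19840.5 in high-fat samples. All 9 tested of 11 had negative differences and none passed, and Marco and Vsig4 were not tested. Neutrophil markers summed to 280.8 to 504.4 in probiotic and 610.3 to 1022.95 in high-fat samples. All 3 tested of 5 had negative differences (median -1.07 log2) and none passed with limma, S100a9 having the smallest p at -1.55 (adjusted p = 0.726), with no overlap between groups, and Mpo and Camp were not tested. Erythroid markers summed to 30534 to 56692.6 in probiotic and 17965.4 to 27663.9 in high-fat samples, with 3 of 5 tested. The part of these differences in the results on the enzymes was not tested beyond the fit that includes the Actb gap, and in whole liver a change in the share of a cell type and a change in RNA per cell cannot be told apart.

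The comparison of probiotic with high-fat livers asked which liver transcripts differ after feeding the bacterium on a fat-rich diet. No bile acid enzyme passed the adjusted test. The smallest unadjusted p-values were those of 2 side-chain enzymes. Acox2 had 1.48-fold more signal in the probiotic group and Amacr 1.33-fold less. For both the groups overlapped and the adjusted p was 0.726 with limma. Of the 12 probe sets, 10 had positive and 2 negative differences, with a median of 0.17 log2 (probiotic minus high-fat, log2 of intensity + 16), and 9 were positive with median centring and 8 with the deposited scaling alone. Over all 18625 tested probe sets 50.5% were positive and the median was 0.0042, and among the 3105 probe sets at or above the 90th percentile of signal 47.1% were positive with a median of -0.018. With limma and Benjamini-Hochberg adjustment over all tested probe sets, 0 of the 12 passed at 0.05, against 0.0215% of all, and adjusted p ran from 0.726 to 0.975.

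At an unadjusted p under 0.05 stood 6.85% of all tested probe sets and 8.53% of the 3105 brightest. Of the 12 probe sets of the enzymes 2 did, Acox2 and Amacr. This count was 4 without high-fat sample 1, 0 without high-fat sample 2 and 1 without probiotic sample 2, probiotic sample 3 or high-fat sample 3. It was also 0 in the fit that includes the Actb gap, with median centring, with eBayes without trend, and without both arrays numbered 2. Over all tested probe sets the number under 0.05, 1275 in the main comparison, moved the same way in each of these settings. It was 1525 with high-fat sample 1 left out and 795 with high-fat sample 2 left out. It was 423 with the Actb gap, 955 with median centring, 1141 with eBayes without trend and 703 with both arrays numbered 2 left out. Other settings did not all move together. With no signal filter 1 of the 12 stood under 0.05, while the overall number was 1989 of 31042. Without probiotic sample 1 and with the replicate block 2 of the 12 did, while the overall numbers were 1772 and 1527. With array weights 3 of the 12 did, and 1711 overall. Whether the moves were particular to these enzymes was not tested. In 1 of the 12 the groups did not overlap, with probiotic values higher, against 6.02% of all tested, and 0 of the 12 lay lower without overlap, against 6.7%.

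**Figure D1:**
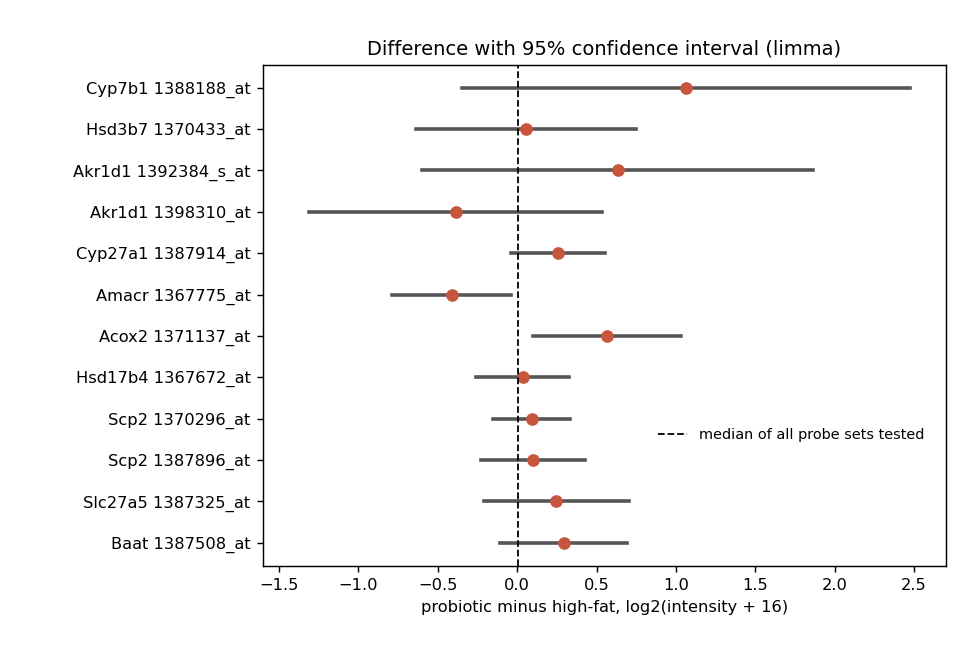
Differences in log2(intensity + 16), probiotic minus high-fat, of the 12 probe sets (points) with 95% confidence intervals from limma (bars, 3 samples a group), and the median of all tested probe sets (dashed line). Only the bars of Acox2 and Amacr lie clear of 0, on opposite sides, and the bar of Cyp7b1 is the widest, from -0.35 to 2.47.

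Side-chain oxidation begins with Cyp27a1, the mitochondrial sterol hydroxylase. Its probe set 1387914_at had log2 signals of 14.13, 14.44 and 14.33 in probiotic samples 1, 2 and 3, against 14.09, 14.09 and 13.95 in high-fat samples 1, 2 and 3. Every probiotic value lay above every high-fat value, though the closest pair was 0.044 apart. The difference was 0.26 (SE 0.13, 95% confidence interval -0.041 to 0.56, adjusted p = 0.735 with limma), and it was 0.13 in the fit that includes the Actb gap.

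Amacr, the racemase that turns the side chain into the form that the oxidase accepts, had a negative difference under every setting tried, while the small differences of Hsd17b4 and Scp2 were above 0 here and below 0 under some other settings. Probe set 1367775_at had 14.12, 13.98 and 14.32 in the probiotic samples, against 14.27, 14.56 and 14.82 in the high-fat samples. The groups overlapped through probiotic sample 3 and high-fat sample 1, which were 0.045 log2 apart. Its difference was -0.41 (SE 0.17, interval -0.79 to -0.039, unadjusted p = 0.034 and adjusted p = 0.726 with limma), and -0.29 without high-fat sample 3.

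Acox2, the branched-chain acyl-CoA oxidase of bile acid intermediates, had the opposite sign. Probe set 1371137_at had 14.67, 14.52 and 14.88 in the probiotic samples, against 13.96, 13.82 and 14.61 in the high-fat samples. High-fat samples 1 and 2 lay below every probiotic sample, while high-fat sample 3 lay above probiotic sample 2. On the deposited scale the signals were 27378.4, 22304.9 and 29041.1 in the probiotic samples, against 15585.1, 14995.5 and 24871.7 in the high-fat samples. The difference was 0.56 (SE 0.21, interval 0.099 to 1.03, unadjusted p = 0.023 and adjusted p = 0.726 with limma). The difference was 0.82 with high-fat sample 3 left out and 0.39 with high-fat sample 2 left out. It was 0.51 (SE 0.32) in the fit with the Actb gap.

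Hsd17b4, the multifunctional enzyme that hydrates and then dehydrogenates the intermediate, barely varied. Probe set 1367672_at had 13.93, 13.89 and 14.10 in the probiotic samples, against 13.87, 13.89 and 14.05 in the high-fat samples. The interval of its difference of 0.035 ran from -0.26 to 0.33 log2, and the groups overlapped throughout. Scp2, whose longer product is the thiolase that cuts the side chain, was read by probe sets 1370296_at and 1387896_at. The first had 15.52, 15.63 and 15.55 in the probiotic samples, against 15.54, 15.49 and 15.39 in the high-fat samples. The second had 14.08, 14.25 and 14.15 in the probiotic samples, against 14.31, 13.92 and 13.96 in the high-fat samples. Their differences were 0.092 (interval -0.15 to 0.33) and 0.098 (interval -0.23 to 0.43), and the first turned to -0.030 with median centring and -0.078 with the deposited scaling alone.

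The opposite signs of Acox2 and Amacr were also read within each array, where the scaling between arrays cancels nearly in full. Acox2 minus Amacr was 0.56, 0.54 and 0.57 log2 in the probiotic samples, against -0.31, -0.74 and -0.21 in the high-fat samples. The probiotic values spanned 0.026 and lay above every high-fat sample. Means were 0.55 ± 0.013 for probiotic and -0.42 ± 0.28 for high-fat samples (SD, n = 3 each) and differed by 0.98, with an exact two-sided permutation p = 0.1, the smallest possible, and 0.3 after adjustment over the 3 within-array differences computed. The difference ran from 0.79 without high-fat sample 2 to 1.11 without high-fat sample 3. With median centring the probiotic values were 0.59, 0.55 and 0.53 (SD 0.030), so their narrow spread depends in part on the normalization. The pair was chosen with earlier results of these data known and joins the members of smallest p and opposite sign, so the contrast restates their differences sample by sample and adds no independent support. Baat minus Slc27a5 differed between groups by 0.046 (exact permutation p = 0.9) and Cyp7b1 minus Cyp27a1 by 0.80 (exact permutation p = 0.5), with overlap in both.

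**Figure D2:**
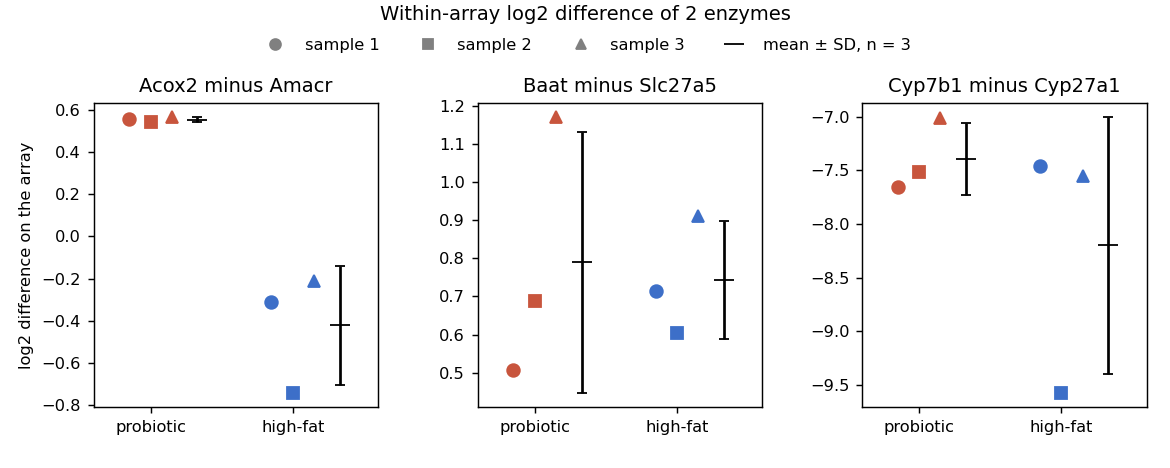
Within-array log2 difference of 2 enzymes (brightest probe set of each) in the 3 probiotic and 3 high-fat samples, with group mean ± SD (black, n = 3), each panel on its own axis. Acox2 minus Amacr is 0.54 to 0.57 in the probiotic samples and below 0 in every high-fat sample, while the groups overlap in the other panels.

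Among the ring enzymes, Cyp7b1, the oxysterol hydroxylase of the acidic route, had the weakest signal of the 12 probe sets and a difference that depended on the pseudocount. Probe set 1388188_at had 6.48, 6.93 and 7.32 in the probiotic samples, against 6.63, 4.51 and 6.40 in the high-fat samples. High-fat sample 2 stood far below the other 5, at a deposited signal of 10.1, and the remaining values overlapped. The difference of 1.06 (SE 0.63, interval -0.35 to 2.47, adjusted p = 0.740 with limma) was 1.56 with a pseudocount of 1, 0.60 with a pseudocount of 64, 0.40 without high-fat sample 2 and 0.21 in the fit with the Actb gap. Its mean lay at the 41.5th percentile of all probe sets, just inside the signal filter, and the other 11 lay at or above the 96.9th. On this log2(intensity + 16) scale the added 16 shrinks the difference of so dim a probe set, while with a pseudocount of 1 its SE was 0.94. The difference rested largely on high-fat sample 2, so no larger fold is inferred.

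Hsd3b7, the dehydrogenase that oxidises the ring hydroxyl, had 12.95, 12.00 and 12.62 in the probiotic samples, against 13.09, 12.07 and 12.23 in the high-fat samples (probe set 1370433_at). Samples of both groups were spread over about the same range, and the difference was 0.057 (SE 0.31, interval -0.63 to 0.75). Akr1d1 reduces the ring double bond, and its probe sets disagreed. Probe set 1392384_s_at, whose suffix marks probes shared by several transcripts, had 13.07, 12.01 and 13.13 in the probiotic samples, against 13.55, 11.44 and 11.32 in the high-fat samples. Probe set 1398310_at had 13.04, 12.58 and 13.89 in the probiotic samples, against 14.47, 13.13 and 13.06 in the high-fat samples. High-fat sample 1 was the highest of the 6 for both.

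The Akr1d1 differences were 0.63 (SE 0.55, interval -0.60 to 1.86) for 1392384_s_at and -0.39 (SE 0.41, interval -1.31 to 0.54) for 1398310_at, and without high-fat sample 1 they were 1.35 (adjusted p = 0.354 with limma) and 0.072. Read on the same array, 1392384_s_at minus 1398310_at was 0.031, -0.57 and -0.76 in the probiotic samples, against -0.92, -1.69 and -1.74 in the high-fat samples. Each probiotic value lay above each high-fat value, and the means were -0.43 ± 0.41 for probiotic and -1.45 ± 0.46 for high-fat samples (SD, n = 3 each). This contrast was picked after its values were seen and was not tested, and the sources used here do not say which transcripts each probe set detects. For Scp2 the same contrast, 1370296_at minus 1387896_at, averaged 1.41 ± 0.030 for probiotic and 1.41 ± 0.17 for high-fat samples (SD, n = 3 each).

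Both conjugation enzymes had positive differences that high-fat sample 1 made smaller. Slc27a5, the bile acid CoA ligase, had 14.43, 14.29 and 14.00 in the probiotic samples, against 14.43, 13.87 and 13.69 in the high-fat samples (probe set 1387325_at). Baat, the amino acid transferase, had 14.94, 14.98 and 15.17 in the probiotic samples, against 15.14, 14.47 and 14.61 in the high-fat samples (probe set 1387508_at). High-fat samples 2 and 3 lay below every probiotic sample for both genes, and high-fat sample 1 lay among the probiotic samples. The differences were 0.25 (SE 0.20, interval -0.21 to 0.70, adjusted p = 0.790) for Slc27a5 and 0.29 (SE 0.18, interval -0.11 to 0.69, adjusted p = 0.742) for Baat with limma. Without high-fat sample 1 they were 0.47 (adjusted p = 0.579) and 0.51 (adjusted p = 0.455). Without high-fat sample 3 that of Slc27a5 was 0.10, and without high-fat sample 2 that of Baat was 0.14.

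**Figure D3:**
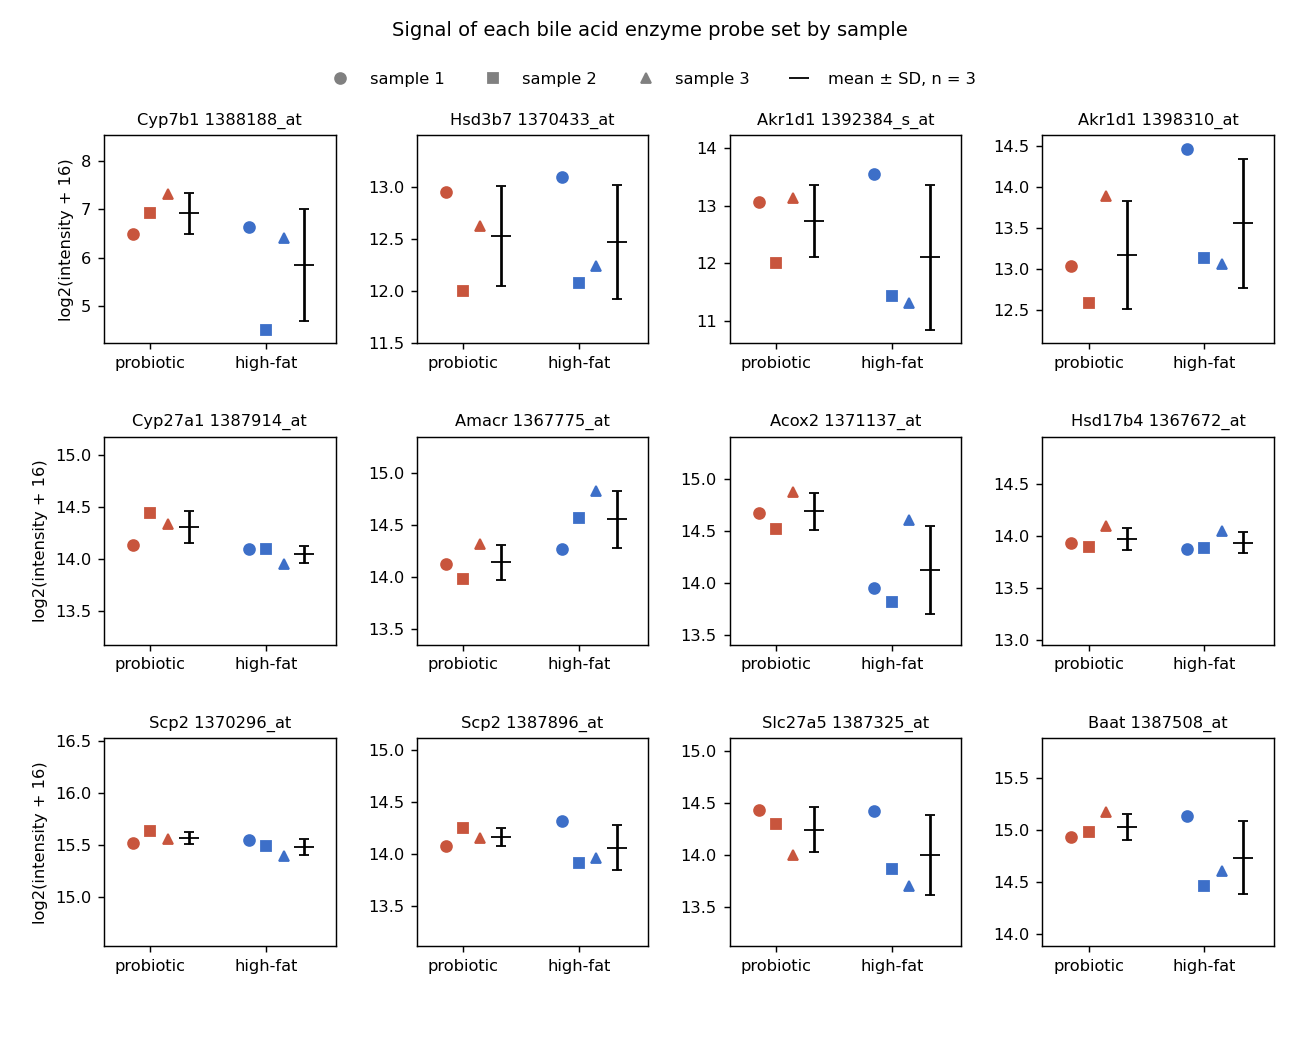
Log2(intensity + 16) after quantile normalization of each probe set in the 3 probiotic samples (left) and the 3 high-fat samples (right), with group mean ± SD (black, n = 3). Each panel has its own axis of at least 2 log2 units that does not start at 0. Groups are apart only for Cyp27a1. High-fat sample 1 lies below every probiotic sample for Cyp27a1, Acox2 and Hsd17b4, and with the probiotic samples or above them for the other genes.

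The spread between samples of a group differed widely among the enzymes. The residual SD was 0.068 log2 for Scp2 probe set 1370296_at, 0.10 for Hsd17b4 and 0.12 for Cyp27a1, and it was 0.99 and 0.73 for the Akr1d1 probe sets 1392384_s_at and 1398310_at and 0.52 for Hsd3b7. For the dim Cyp7b1, which is not among the brightest probe sets, it was 0.87. Over the 3105 brightest probe sets the median was 0.23, and 98.7% and 96.7% of them varied no more than the Akr1d1 probe sets and 91.2% no more than Hsd3b7. Across the 6 arrays Hsd3b7 had a Pearson r of 0.89 with Akr1d1 probe set 1392384_s_at and 0.72 with 1398310_at, and Amacr had an r of -0.92 with Scp2 probe set 1370296_at and -0.87 with Slc27a5. These describe 6 arrays in which the groups, the RNA integrity and the scaling are shared by all genes. With the brightest probe set of each gene, the median deviation of the 10 genes from their own means was 0.026, 0.10 and 0.15 in probiotic samples 1, 2 and 3, against 0.14, -0.24 and -0.17 in high-fat samples 1, 2 and 3. By this median high-fat sample 1 lay with the probiotic samples, though for Acox2, Cyp27a1 and Hsd17b4 it lay below all of them. High-fat sample 2 had 1 of the 10 genes above its own mean.

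**Figure D4:**
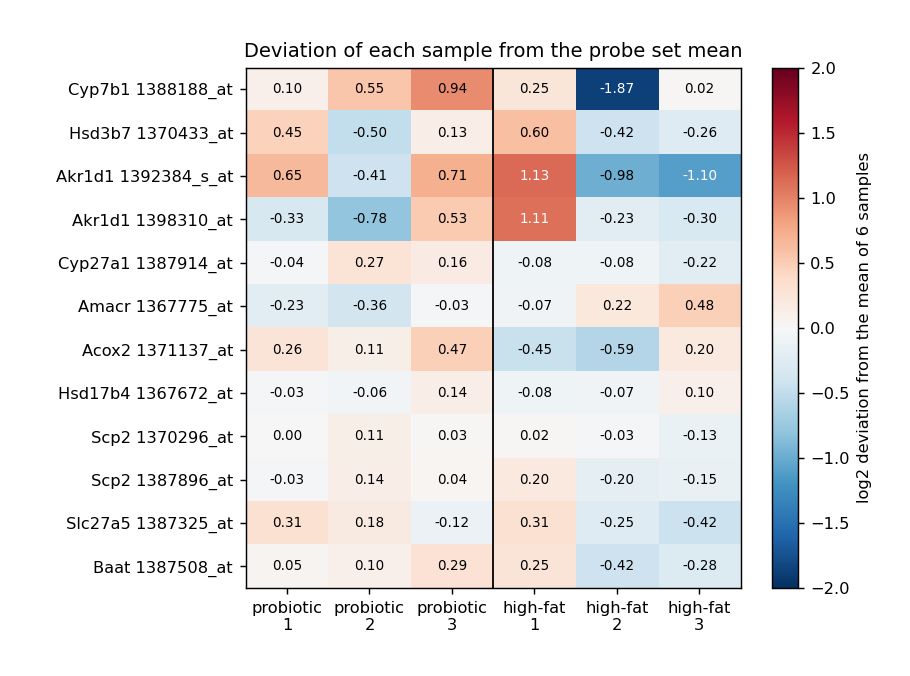
Deviation of each sample from the mean of all 6 samples for each probe set, in log2 units (colour and printed value), with probiotic samples left of the line and high-fat samples right of it. The widest swings are in Akr1d1, at 1.13 and 1.11 in high-fat sample 1, and in Cyp7b1, at -1.87 in high-fat sample 2, while no value of Hsd17b4 or Scp2 exceeds 0.202 in size.

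Neighbouring genes of the pathway were counted by their brightest tested probe set, and with limma 0 passed the adjusted test in any of 5 lists. Of 5 tested of 7 other synthesis enzymes, 2 had positive and 3 negative differences (median -0.31). An unadjusted p under 0.05, held by 6.85% of all tested probe sets, was found for 1 of the 5. It was Cyp8b1, the hydroxylase that sets the share of cholic acid, with 14.48, 14.99 and 14.76 in the probiotic samples, against 14.24, 14.60 and 14.19 in the high-fat samples, a difference of 0.40 (SE 0.17, adjusted p = 0.726). Cyp7a1, which opens the main route, had 9.93, 13.54 and 13.29 in the probiotic samples, against 12.20, 13.13 and 12.48 in the high-fat samples. Probiotic sample 1 was the lowest of the 6 for Cyp7a1 by 2.26 log2 units. Peroxisomal partners of side-chain shortening numbered 6 tested of 9, with 4 positive and 2 negative (median 0.075), and Ehhadh, a multifunctional enzyme of peroxisomal oxidation, had the smallest p, with a difference of 0.84 (SE 0.30, adjusted p = 0.726). Ehhadh alone of the 6 had an unadjusted p under 0.05.

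Regulators of bile acid synthesis had 9 tested of 11, with 7 positive and 2 negative differences (median 0.28). Of the 9, 2 had an unadjusted p under 0.05, against 6.85% of all tested probe sets. The smallest p was that of Nr0b2, the repressor induced by the bile acid receptor, at 1.92 (SE 0.57, adjusted p = 0.726). Bile acid transporters and the associated Ephx1 had 8 tested of 11, with 5 positive and 3 negative (median 0.14), led by the uptake carrier Slco1a4 at 0.62 (SE 0.21, adjusted p = 0.726). Enzymes of sulfation and detoxification had 6 tested of 9, with 2 positive and 4 negative (median -0.039), led by the cytochrome P450 Cyp3a9 at 0.60 (SE 0.14, adjusted p = 0.726). Among these transporters and detoxification enzymes, only Slco1a4 and Cyp3a9 had an unadjusted p under 0.05. The 10 enzymes themselves, by brightest probe set, had 8 positive and 2 negative differences with a median of 0.17, and no difference between these lists was tested.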

How the data were processed

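Trizol was used to extract total liver RNA, and 8 ug of it gave biotin-labelled cRNA, per the labels' protocols. The authors deposited 1 linear intensity per probe set and array, and the software behind it is not given in the sources used here. A mean trimmed by 2% at each end was alike on every array. Log2(intensity + 16) was quantile normalized, 57 control probe sets were left out, and probe sets with a mean at or above the 40th percentile were tested (18625 of 31042). Gene names came from the platform annotation and were checked against RefSeq (GRCr8). Of 20832 probe sets listed with 1 symbol, controls included, 20764 matched and 0 changed. Of the 31042 probe sets, 20826 had 1 symbol, 436 had several and 9780 are unnamed here.

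Groups followed the sample titles, and limma 3.58.1 under R 4.3.3 compared them (lmFit, eBayes with trend, two-sided, threshold 0.05). Every difference is probiotic minus high-fat. Within-array differences were tested by exact permutation with scipy 1.17.1, and figures were drawn with matplotlib 3.10.9. In 20 simulated data sets with 200 of 18625 probe sets changed 4-fold, the test recovered 62.6%, with 6.55 false calls per run. The differences of the enzymes were smaller, the largest being 2.09-fold for Cyp7b1, and that of Acox2 was 1.48-fold. Changes of such size were not simulated, so the 62.6% does not give the recovery for these enzymes. All probe sets of the 10 genes are named, with Cyp7a1, Cyp8b1 and the gene of smallest p in each list. The members, lists and motifs were chosen with earlier results of these data known. Protein features were not used here. Alternatives covered normalization, pseudocount, filter, variance model, the Actb gap, array weights, a replicate block and each sample left out.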

Additional observations from a re-analysis of the deposited data

How the results depend on the processing

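None of the 12 probe sets passed the adjusted test under any of 17 other settings, the lowest adjusted p being 0.354 (Akr1d1 1392384_s_at without high-fat sample 1). Of 201 alternative differences, 191 kept their sign and 10 turned. Acox2, Amacr, Cyp27a1, Baat, Slc27a5, Akr1d1 1392384_s_at and Cyp7b1 kept theirs in every setting that tested them, and Cyp7b1 lay below the filter at the 60th percentile and without probiotic sample 2 or 3. Acox2 ran from 0.39 to 0.82 and Amacr from -0.56 to -0.29. With single samples left out, Hsd3b7 ran from -0.15 to 0.37, Akr1d1 1398310_at from -0.75 to 0.072, Hsd17b4 from -0.023 to 0.091 and Baat minus Slc27a5 from -0.14 to 0.19. Hsd17b4 was -0.021 with the deposited scaling alone. Scp2 1370296_at was -0.030 with median centring and -0.078 with the deposited scaling alone, and Scp2 1387896_at was -0.067 in the fit with the Actb gap and -0.018 without both sample 2 arrays. The cause of these turns was not tested. Over the whole table the test called 4 probe sets and 3 to 12 with single samples left out (12 without probiotic sample 1, 9 without high-fat sample 1). With the replicate number as a block it called 4, and 0 of the 12. With this block the unadjusted p of Acox2 was 0.0037 (SE 0.14, adjusted p = 0.578) with limma. That of Amacr was 0.016 (SE 0.13, adjusted p = 0.580). Deviations of same-numbered samples correlated at 0.144, 0.027 and 0.077, against -0.141 to 0.067 between samples of different number. The sample titles do not state a pairing, so the main fit used none, and whether the numbers mark pairs was not settled. The median of all tested differences was 0.0042 after quantile normalization, 0.028 after median centring and -0.020 on the deposited scaling.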
